A study of Mus musculus with 2 samples.

Results

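The genes described here encode the proteins of the mitochondrial ribosome and the aminoacyl-tRNA synthetases that work inside mitochondria. They were chosen by symbol alone, as every gene ID whose symbol is Mrpl or Mrps with a number (and at most 1 further letter) or 1 capital letter followed by ars2. The rule found 94 of the 42392 gene IDs in the table: 48 named for the large subunit, 29 for the small subunit and 17 synthetases. The RNA came from hair follicle stem cells, which sit in the bulge of the follicle and feed new hair growth. They were sorted from unwounded skin of female mice as cells with high integrin alpha 6 and with CD34, lacking SCA1, CD140a, CD117, CD31 and CD45. Animals of both samples of the series carried K15-CrePGR, a Cre fused to the progesterone receptor under a keratin 15 promoter, and the Shh+/- genotype, and both had RU486, the ligand of that Cre, for 8 days. Both are titled controls, 1 in telogen (rest) and 1 in anagen II-III (early growth). The sources used here give neither their ages nor the number of animals pooled. Only the anagen II-III library could be tied by name to a column of the table, so the values below are those of 1 library, without replicates, and no test was possible. The telogen sample was not analysed here.

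Mitochondria keep a small genome that encodes a few core proteins of the respiratory chain and ATP synthase, the ribosomal RNAs and a set of tRNAs. Every protein needed to translate those messages is encoded in the nucleus, made in the cytosol and imported. The mitochondrial ribosome descends from a bacterial one: many of its proteins have bacterial homologues, and others are known only from mitochondria. Synthetases attach amino acids to tRNAs, and most amino acids have one nuclear gene for the cytosolic enzyme and another for the mitochondrial enzyme.

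Sequences are shown first for the members at both ends of the range of levels, since the comparison of promoters further on turns on the motifs in them. Each is the 120 bases before the annotated start, written 5′ to 3′ along the gene, from RefSeq on GRCm38.p6. The rule was the 3 highest and the 2 lowest members with a single entry whose start is the outer end of the annotated gene. Capitals mark a match to a motif named further on.
Lars2 (chr9:123366807-123366926, + strand, 629 TPM): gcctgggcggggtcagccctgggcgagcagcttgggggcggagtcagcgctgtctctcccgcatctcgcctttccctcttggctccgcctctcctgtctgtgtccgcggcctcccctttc
Mrpl52 (chr14:54426789-54426908, + strand, 236 TPM): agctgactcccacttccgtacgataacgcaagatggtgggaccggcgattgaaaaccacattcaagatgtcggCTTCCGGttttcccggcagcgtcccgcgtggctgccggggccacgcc
Mrps21 (chr3:95871515-95871634, - strand, 158 TPM): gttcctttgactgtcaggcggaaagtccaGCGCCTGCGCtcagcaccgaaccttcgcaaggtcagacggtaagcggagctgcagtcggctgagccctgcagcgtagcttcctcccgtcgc
Mrpl35 (chr6:71823785-71823904, - strand, 4.70 TPM): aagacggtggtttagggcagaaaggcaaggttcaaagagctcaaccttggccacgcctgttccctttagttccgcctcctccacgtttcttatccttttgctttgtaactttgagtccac
Mars2 (chr1:55237057-55237176, + strand, 1.02 TPM): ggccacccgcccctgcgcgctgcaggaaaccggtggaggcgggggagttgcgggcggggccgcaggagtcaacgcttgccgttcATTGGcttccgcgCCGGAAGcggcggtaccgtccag
The capitals mark a GABP match in Mrpl52, an NRF1 match in Mrps21, and a CCAAT box followed by a GABP match in Mars2. No motif of those searched lies in the 120 bases shown for Lars2 or Mrpl35.

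Levels are in TPM, a measure of transcript abundance that divides by transcript length. Different genes of the library are set side by side on that scale. Whether very short genes still read higher than long ones after the division was not tested. TPM keeps no read depth, so the values carry neither a counting interval nor a floor. The sort label was checked on marker genes. All 11 bulge markers were at 16.1 TPM or more, with Krt15 at 3364, Cd34 at 132 and Itga6 at 99.4 TPM. Summed levels were 9631 TPM for these 11 genes, 46.9 for 6 melanocyte genes, 33.9 for 6 leukocyte genes and 9.44 for 5 endothelial genes. The 6 fibroblast genes summed to 879 TPM, nearly all from Col3a1, Col1a1 and Col1a2 at 287, 278 and 237 TPM and Dcn at 63.9 TPM, while Pdgfra, which encodes the excluded CD140a, stood at 1.44 TPM. None of these markers was at 0. The share that such cells have in the values of the mitochondrial genes was not tested, and in a bulk sample fewer cells of a type and less RNA per cell cannot be told apart.

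Every member was detected, and the ribosomal proteins stood well above the synthetases. All 94 were at 1 TPM or more, against 56.0% of the 20870 protein-coding genes. At 5 TPM or more there were 87, against 42.4%, and at 10 TPM or more 78, against 31.8%. The median over all members was 29.5 TPM. The median of the 11680 protein-coding genes at 1 TPM or more, called expressed genes here, was 12.5 TPM, and 69 of 94 members lay above it, against 28.0% of all protein-coding genes. The upper quartile of expressed genes was 30.0 TPM. At or above it were 45 members, against 14.0% of all protein-coding genes, and 44 of those 45 were ribosomal proteins. Below the lower quartile, 5.17 TPM, were 7 members: Mrpl1, Mrpl35 and the synthetase genes Ears2, Aars2, Wars2, Pars2 and Mars2. In sum the members took 0.395% of the library's TPM. Of the 2 kinds, the 77 ribosomal protein genes (median 34.0 TPM) exceeded the 17 synthetase genes (median 9.97 TPM) by a ratio of 3.40. Transcript lengths of the 2 kinds were not compared.

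**Figure D1:**
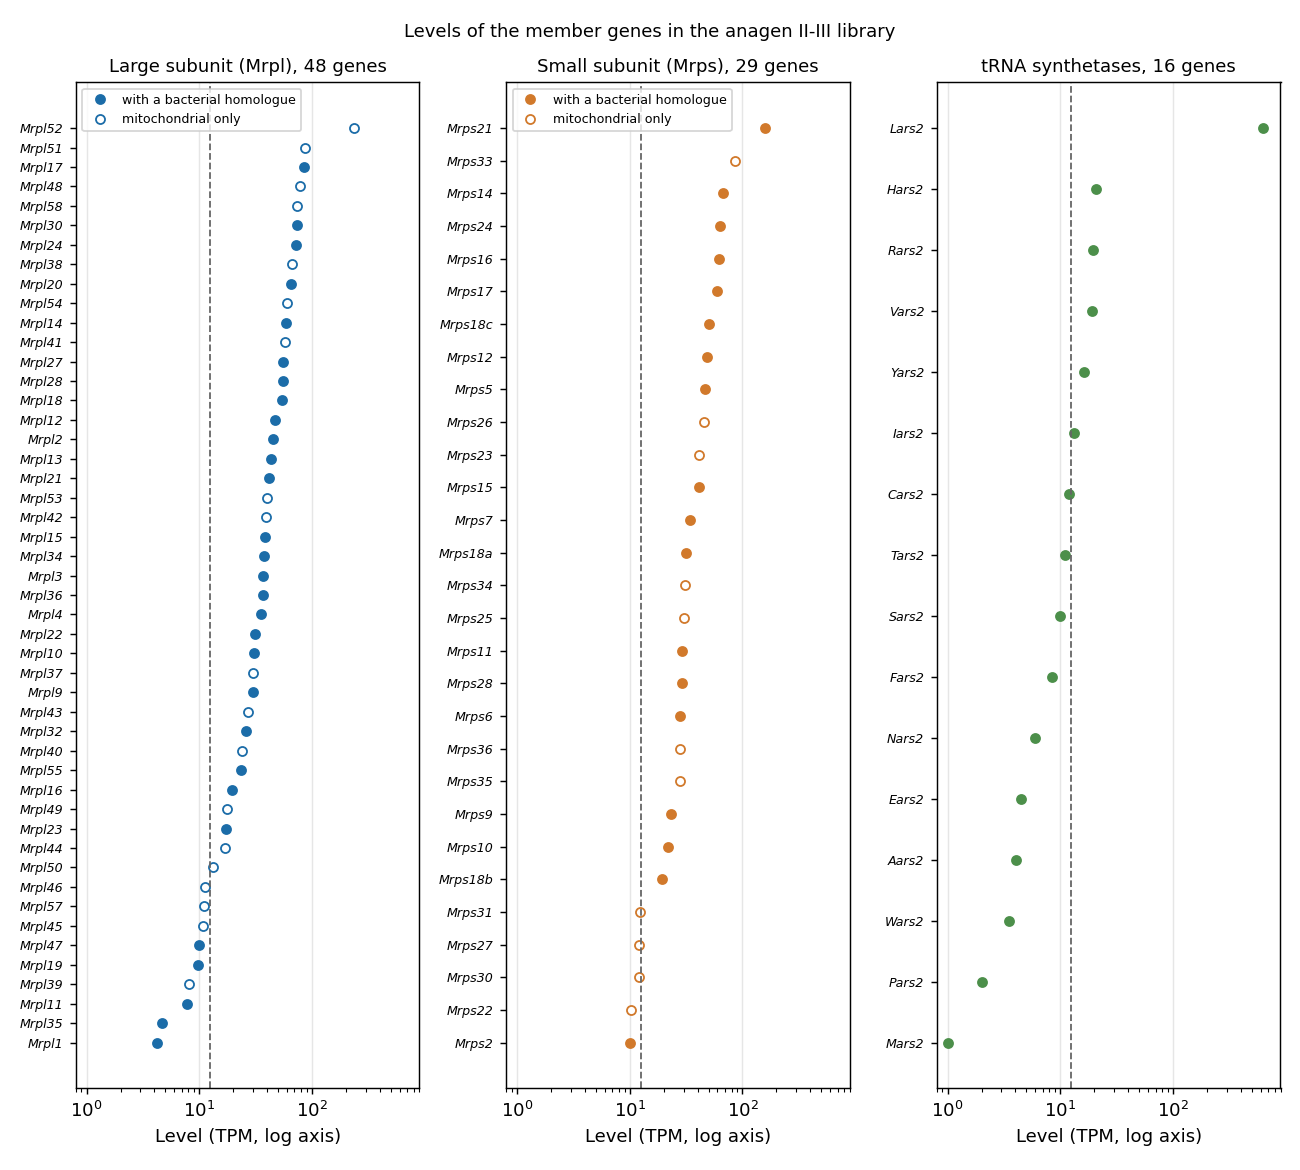
Level of 93 member genes in the anagen II-III library (x axis, TPM, log axis), sorted within 3 panels for the large subunit, the small subunit and the synthetases; each point is 1 gene in 1 library, filled points in the first 2 panels have a bacterial homologue, and the dashed line is the 12.5 TPM median of the expressed genes. Of the ribosomal proteins 63 of 77 lie right of the line, of the synthetases drawn 6 of 16, and Lars2 stands alone at 629 TPM.

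The large subunit joins amino acids into the chain and houses the exit tunnel. Over its 48 genes the median was 37.0 TPM, with values from 4.25 to 236 TPM. Mrpl52 (chromosome 14, 54426909 to 54429750 on GRCm38) led at 236 TPM and was 2.69 times the next, Mrpl51, at 87.5 TPM. Both belong to the proteins known only from mitochondrial ribosomes. Mrpl17, a homologue of a bacterial protein near the tunnel exit, followed at 84.5 TPM, and Mrpl48 at 78.6 TPM. No other neighbours in the subunit's order of levels were as far apart as Mrpl52 and Mrpl51, and the lowest were Mrpl11 at 7.83 TPM, Mrpl35 at 4.70 TPM and Mrpl1 at 4.25 TPM. Mrpl52 thus stood 55.4-fold above Mrpl1, although both proteins are parts of the same particle.

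Genes for functional sites of the large subunit were spread over that range. Mrpl2 and Mrpl3, homologues of bacterial proteins around the peptidyl transferase centre, stood at 44.8 and 37.1 TPM. Mrpl27, whose bacterial homologue reaches toward that centre, was at 55.9 TPM. The stalk, which recruits translation factors, is built from Mrpl10, Mrpl11 and Mrpl12: these stood at 30.3, 7.83 and 46.8 TPM, so Mrpl11 was the lowest of the 3. Mrpl1, of the other stalk, was the lowest of the subunit. Mrpl45, which helps tether the ribosome to the inner membrane, was at 10.8 TPM. Mrpl44, related to ribonuclease III, was at 17.0 TPM. Mrpl58, also known as Ict1, releases chains from stalled ribosomes and stood at 73.7 TPM, 6.63 times Mrpl57 at 11.1 TPM.

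The small subunit reads the message. Genes were assigned to a subunit by symbol alone, which does not settle where a protein lies in the particle. Over the 29 genes named for the small subunit the median was 30.9 TPM, and the large subunit's median was 1.20 times that. By geometric mean with a pseudocount of 1 the order turned, with 31.1 TPM for the large and 32.6 TPM for the small subunit. Genes of the small subunit ran from 9.98 TPM for Mrps2 to 158 TPM for Mrps21 (chromosome 3, 95862634 to 95871514), a 15.9-fold range, so none fell as low as the lowest of the large subunit. Mrps33 followed at 85.4 TPM, then Mrps14 at 67.3, Mrps24 at 62.7 and Mrps16 at 61.8 TPM. Mrps12, a homologue of the bacterial decoding-site protein S12, was at 48.1 TPM, and Mrps5, a homologue of S5, at 46.9 TPM. The lowest after Mrps2 were Mrps22 at 10.2, Mrps30 at 12.0, Mrps27 at 12.1 and Mrps31 at 12.3 TPM. These 4 are known only from mitochondrial ribosomes, and Mrps30, in spite of its name, is placed in the large subunit in structures of the particle. Mrps36, at 27.9 TPM, is now assigned to the 2-oxoglutarate dehydrogenase complex and not to the ribosome.

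Members with and without a bacterial homologue overlapped over most of their range. The 47 with a homologue had a median of 37.1 TPM, from 4.25 to 158 TPM, and 41 of them lay above the median of expressed genes. The 30 known only from mitochondria had a median of 28.9 TPM, from 8.09 to 236 TPM, and 22 of them lay above it. Of the 3 highest ribosomal genes, Mrpl52 and Mrpl51 are known only from mitochondria and Mrps21 has a homologue, and the lowest, Mrpl1, has one too. The bacterial S18 protein has 3 mitochondrial counterparts, each incorporated at a different place. Mrps18c stood at 50.7 TPM, Mrps18a at 31.5 TPM and Mrps18b at 19.2 TPM. Mrps18c was thus 2.64 times Mrps18b.

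Ribosomal proteins that carry other symbols were in the same range. Chchd1 was at 75.9 TPM, Aurkaip1 at 61.6, Dap3 at 60.0, Ptcd3 at 11.4 and Gadd45gip1 at 10.3 TPM. The first 4 belong to the small subunit and Gadd45gip1 to the large one. Mrpl33 was not analysed here.

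Copies elsewhere in the genome make some values uncertain, since reads can be split between a gene and a near-identical pseudogene. RefSeq names pseudogenes of 4 members, and the table gave values for 5 of the 6 named copies. Mrpl23 stood at 17.3 TPM and Mrpl23-ps1 at 55.8 TPM, 3.22 times its parent. Mrps36 stood at 27.9 TPM, with Mrps36-ps1 at 46.6, Mrps36-ps2 at 9.52 and Mrps36-ps3 listed at 0. Mrpl48 stood at 78.6 TPM and Mrpl48-ps at 44.4 TPM. For Mrpl23 and Mrps36 the copy was therefore listed above the gene itself. Mrpl27, at 55.9 TPM, is the fourth, and its copy was not analysed here. Copies under other names were not searched for.

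The synthetases other than Lars2 lay in the lower part of the members' range. These 16 genes ran from 1.02 to 20.9 TPM with a median of 9.21 TPM. Of them 5 passed the median of expressed genes, or 31.25%, near the 28.0% of all protein-coding genes. Hars2, for histidine, led these at 20.9 TPM. Rars2 for arginine, Vars2 for valine and Yars2 for tyrosine followed at 19.5, 18.9 and 16.1 TPM. Iars2 for isoleucine was at 13.3 TPM, Cars2 for cysteine at 11.8, Tars2 for threonine at 11.0 and Sars2 for serine at 9.97 TPM. Below them were Fars2 for phenylalanine at 8.44 and Nars2 for asparagine at 5.94 TPM. Ears2 for glutamate was at 4.45, Aars2 for alanine at 4.07 and Wars2 for tryptophan at 3.49 TPM. Pars2 for proline was at 2.01 TPM and Mars2 for methionine, which is also the amino acid of the initiator, at 1.02 TPM. Hars2 was 20.5 times Mars2.

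Lars2, the leucine enzyme (chromosome 9, 123366927 to 123462675 on GRCm38), stood at 629 TPM. It was 30.1 times Hars2, the second highest synthetase, and ranked 107th among protein-coding genes, while the highest ribosomal protein, Mrpl52, ranked 300th. The 2 mitochondrial leucine tRNAs, mt-Tl1 and mt-Tl2, were at 131 and 50.5 TPM, although an mRNA library of this kind is not built to capture tRNAs. Ribosomal RNA features were present in the library: mt-Rnr2 and mt-Rnr1, the mitochondrial ribosomal RNAs, were at 285 and 251 TPM. Gm42418, a feature that overlaps nuclear ribosomal RNA and was chosen after its value was seen, was at 4596 TPM. Whether reads of ribosomal RNA take part in the Lars2 value was not tested. Lars2 alone made up most of the 788 TPM summed over the 17 synthetases, of which 159 TPM remained without it. The median was 9.97 TPM with Lars2 and 9.21 TPM without.

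Most mitochondrial synthetases stood below the cytosolic enzyme for the same amino acid. In 15 of 17 pairs the cytosolic gene was higher, in 10 of them at least 2-fold, and the median ratio of cytosolic to mitochondrial level was 3.33. Over the pairs with both genes at 5 TPM or more the median ratio was 1.78. Methionine showed the widest gap in this direction, with Mars1 at 24.9 TPM against 1.02 for Mars2, 24.5-fold. Proline and glutamate share the cytosolic gene Eprs, a fused enzyme for both, at 33.6 TPM. Eprs was 16.7-fold above Pars2 and 7.56-fold above Ears2, so these 2 pairs are not independent. Alanine, serine and tryptophan followed, with Aars, Sars and Wars 6.15-, 5.80- and 5.20-fold above Aars2, Sars2 and Wars2. The phenylalanine pair used Farsa, the alpha subunit of a cytosolic enzyme of 2 kinds of subunit. Farsa was at 34.9 TPM, 4.14-fold above Fars2.

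At the other end, 6 pairs were within 2-fold. Histidine was nearly even, with Hars at 22.9 TPM against 20.9 TPM for Hars2, a ratio of 1.10. Isoleucine was even too, with Iars at 12.9 and Iars2 at 13.3 TPM, and was 1 of the 2 pairs with the mitochondrial gene higher. Leucine was the other, with Lars at 14.6 TPM and Lars2 43.0-fold above it. Without Lars2 the median ratio was 3.73. No replicate shows how far ratios near 1 would vary.

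**Figure D2:**
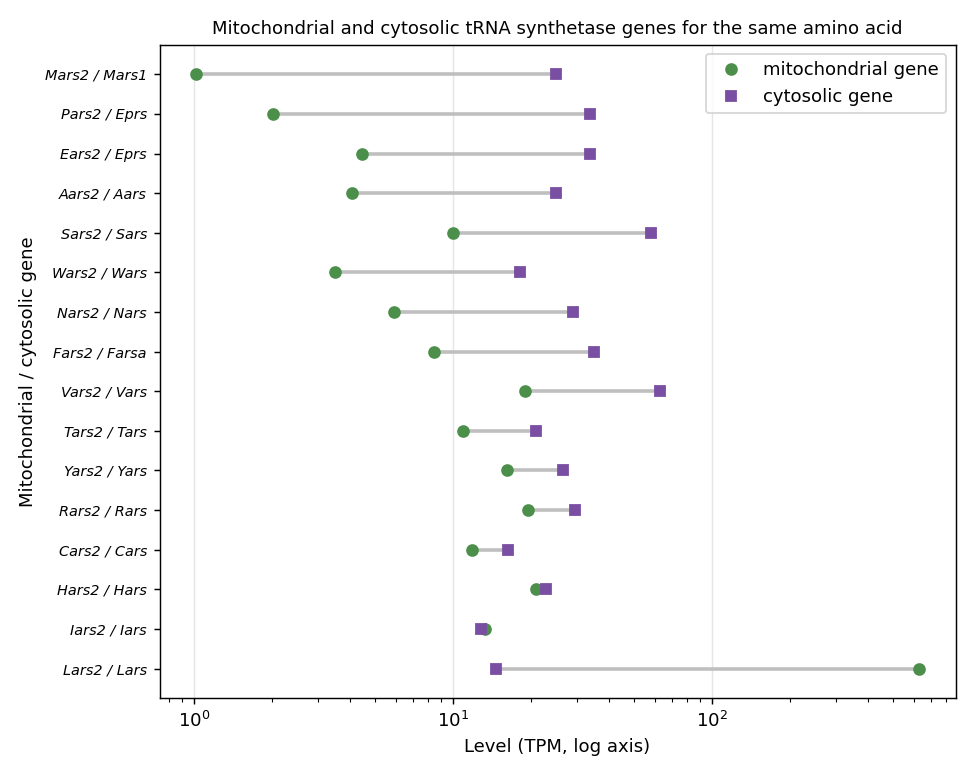
Level of mitochondrial synthetase genes (circles) and of the cytosolic gene for the same amino acid (squares) in 1 library, in TPM on a log axis, for 16 pairs sorted by their ratio; a grey line joins each pair, and Eprs appears for both proline and glutamate. The square lies to the right in 14 of them, from 24.5-fold for Mars2 and Mars1 down to 1.10-fold for Hars2 and Hars.

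Glycine and lysine have no mitochondrial gene of their own: Gars and Kars encode both forms of those enzymes and stood at 33.5 and 35.2 TPM, above each mitochondrial synthetase except Lars2. For glutamine, mitochondria use an indirect route. The tRNA is first loaded with glutamate by Ears2 and then amidated by an enzyme of 3 subunits, and those genes, Gatc, Qrsl1 and Gatb, were at 12.4, 6.14 and 5.67 TPM, near Ears2 at 4.45 TPM.

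The other genes of mitochondrial translation stood nearer to the synthetases than to the ribosomal proteins. All 25 assembly factors were at 1 TPM or more, with a median of 12.2 TPM. Above the median of expressed genes lay 12 of 25, or 48%, against 28.0% of all protein-coding genes. Mterf3, which takes part in building the large subunit, led at 25.8 TPM, with Mpv17l2 at 24.8 and Mrm1, a methyltransferase for the large ribosomal RNA, at 17.9 TPM. Ddx28, an RNA helicase, and Ybey, a nuclease, were lowest at 2.60 and 1.03 TPM. The 12 translation factors had a median of 10.2 TPM, and 5 lay above the median of expressed genes, or 41.7%. The elongation factor Tufm was highest at 45.0 TPM, its exchange factor Tsfm was at 27.3 and the translocase Gfm1 at 17.7 TPM, while Taco1 and the release factor Mtrf1 were lowest at 7.04 and 2.56 TPM. The ribosomal proteins' median was 2.79 times that of the assembly factors and 3.34 times that of the translation factors. The list for copying and transcribing the mitochondrial genome, which also holds genes for proteins that bind its RNA, such as Slirp, had a median of 8.31 TPM. Slirp at 92.9, Polg at 40.6 and Ssbp1 at 29.1 TPM were highest, and Polg2 and Mterf1a at 3.88 and 2.55 TPM lowest.

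Genes of the respiratory chain, of the mitochondrial genome and of the cytosolic ribosome had far higher medians than the members. A chosen list of 44 nuclear genes of the respiratory chain and ATP synthase, which does not hold every subunit, had a median of 128 TPM. That was 3.78 times the median of the mitochondrial ribosomal proteins. The 13 protein genes of the mitochondrial genome, the only messages these ribosomes translate, had a median of 4171 TPM, from 700 TPM for mt-Nd5 to 112904 TPM for mt-Atp8, a very short gene. Proteins of the cytosolic ribosome, 78 genes, had a median of 929 TPM, 27.4 times that of the mitochondrial ones. Many cytosolic ribosomal genes have pseudogene copies, which makes their single values uncertain. The cytosolic ribosome's median was 34.7 times that of the cytosolic synthetases, against 3.40 for the same ratio in mitochondria.

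**Figure D3:**
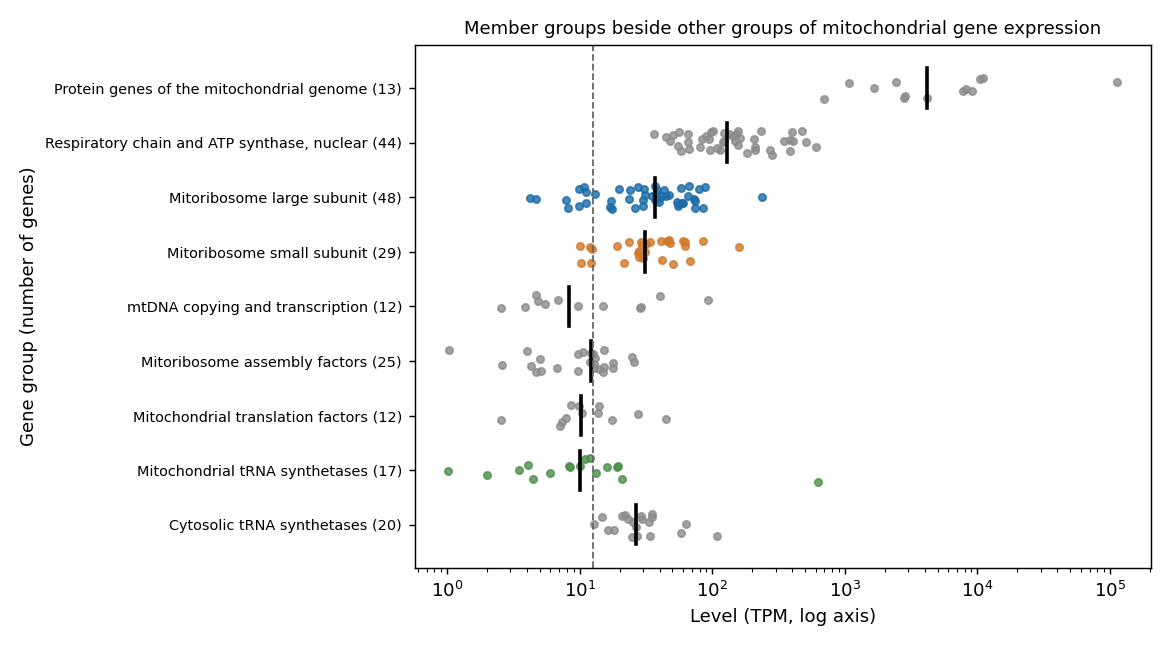
Level of each gene (points, TPM on a log axis) in 9 groups of mitochondrial gene expression and cytosolic synthetases in 1 library, with the number of genes after each name; black bars are medians, the dashed line is the 12.5 TPM median of the expressed genes, the coloured groups hold the 94 members, and the vertical scatter within a row carries no value. Medians run from 8.31 TPM for the copying and transcription genes through 9.97 TPM for the synthetases and 37.0 TPM for the large subunit to 4171 TPM for the mitochondrial genome.

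Promoters of the members were compared with those of other genes, as a feature that the choice by symbol did not use. NRF1, GABP and YY1 are transcription factors known for binding at nuclear genes of mitochondria. RefSeq gave a window of 300 bases, 250 before to 50 after the start, for 82 of the 94 members, and 4 of these have more than 1 such window. Both strands were searched, and a gene counted once if any of its windows held the letters. Windows of genes that start head to head can overlap, so the same site can count for both genes. Mrps12 and Sars2 share a GABP site in this way. The GABP letters CCGGAAG, an ETS site, were in 29 of 82 members, or 35.4%, against 20.7% of 9376 expressed genes and 12.9% of 17492 protein-coding genes with a window. The NRF1 letters, GCGCA and GCGC with any 1 base between them, were in 15 members, or 18.3%, against 11.8% and 7.17%. The YY1 letters ATGGCGGC were also in 15, or 18.3%, against 5.91% and 3.50%. At least 1 of the 3 was in 48 members, or 58.5%, against 33.6% of expressed genes and 20.9% of all, and 11 members held 2 kinds. Matches to different motifs overlapped in 0 of the 82 members, for all 7 motifs searched.

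Other motifs were not more frequent in the members. The CCAAT box, CCAAT, was in 39.0% of members and 43.5% of expressed genes. The TATA box, TATAAA, was in 8.54% and 8.56%, and the E-box CACGTG, the site of Myc, in 7.32% and 11.8%. A composite site of ATF4, the transcription factor of the integrated stress response named in the series title, was searched as TGATGNAAT. It was in none of the 82 members and in 0.608% of expressed genes. At so low a share, 82 members are too few for the absence to be read as a result. None of these differences was tested.

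Most matches to the GABP, NRF1 and YY1 letters lay near the start, in the members as in other genes. For GABP 30 of 34 matches in members, or 88.2%, began no more than 100 bases before the start or after it, against 75.6% of matches in expressed genes. For NRF1 16 of 18 did, or 88.9%, against 71.7%. Of the TATA box matches in members 1 of 8 lay there, or 12.5%, against 44.3% of matches in expressed genes. Of the E-box matches 3 of 8 did, or 37.5%, against 60.9%, and of the CCAAT box matches 62.3%, against 55.9%. These differences were not tested. Matches were counted in each window, so in a gene with several windows 1 site can count more than once. The 3 E-box matches of Mrpl2, at 131, 139 and 147 bases before the start, may be such a case. Of the 15 members with the YY1 letters, 14 had them on the gene's own strand between 2 and 30 bases after the start, with Mrps11 the exception. Over all protein-coding genes, 47.1% of those with the letters had them on the gene strand after the start. The letters begin with ATG, the start codon, so a match in a short leader can also be the first codons of the protein. Lars2 had these letters 23 bases after its start, and so did Mrpl35 at 26 bases, which is why neither is marked in the stretches printed above.

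Levels of members with and without a motif overlapped. The 29 with the GABP letters had a median of 41.5 TPM, from 1.02 to 236 TPM, and the 53 without had one of 23.3 TPM, from 3.49 to 629 TPM. With the NRF1 letters the median was 26.1 TPM in 15 members, against 29.8 TPM in 67, and with the YY1 letters 29.8 TPM against 28.1 TPM. Mars2, the lowest member, held both the GABP and the NRF1 letters. The factors themselves were all expressed: Yy1 was at 31.1 TPM, Gabpa at 18.8, Nrf1 at 17.5 and Gabpb1, the partner of Gabpa, at 9.76 TPM. Of the coactivators that drive mitochondrial genes in other tissues, Pprc1 was at 25.1 TPM, Ppargc1b at 0.929 and Ppargc1a at 0.142 TPM. Myc and Esrra stood at 20.4 and 19.3 TPM.

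**Figure D4:**
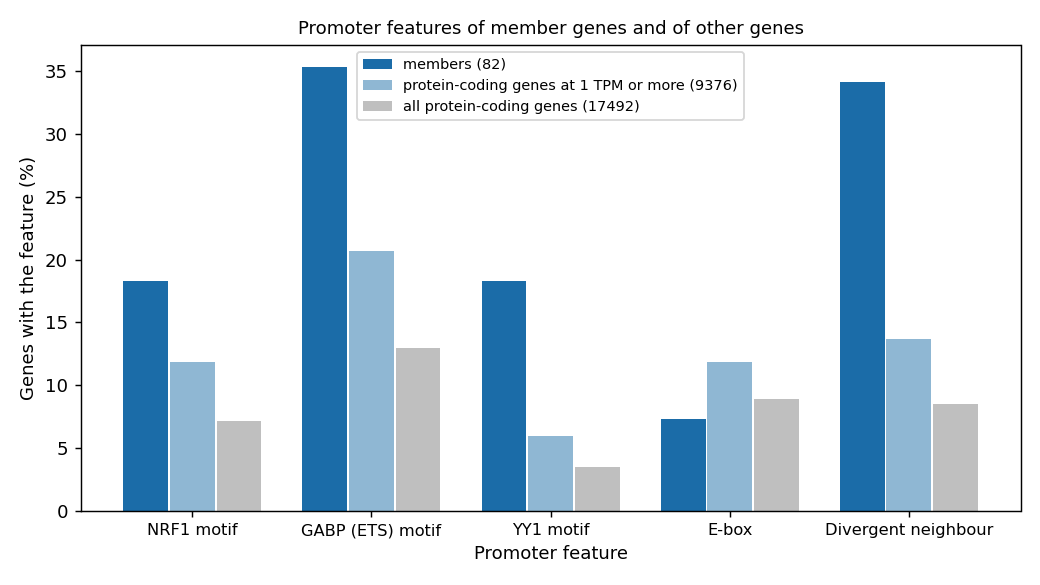
Share of genes (y axis, percent, bars from 0) with each of 4 promoter motifs, and with another protein-coding gene starting within 1000 bases in the opposite direction, for 82 members, 9376 protein-coding genes at 1 TPM or more and 17492 protein-coding genes. Members have the tallest bar for NRF1 (18.3%), GABP (35.4%), YY1 (18.3%) and a divergent neighbour (34.1%), and the lowest for the E-box (7.32%).

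Many members start head to head with another gene. A divergent neighbour was counted where the start of a protein-coding gene on the other strand lay at most 1000 bases upstream. That held for 28 of 82 members, or 34.1%, against 13.6% of expressed genes and 8.48% of all protein-coding genes with a window. Of the 28, 17 were of the large subunit, 7 of the small subunit and 4 were synthetases. In 2 pairs both genes are members, so the 28 members form 26 distinct pairs. The starts were 15 to 935 bases apart, with a median of 136 bases, and 23 of 26 pairs lay within 350 bases. Every neighbour was at 1 TPM or more, as were 1279 of the 1483 protein-coding genes that have a divergent neighbour. Levels within a pair often differed: 8 of 26 pairs were within 2-fold. No 2-fold share was computed for pairs without a member. Beside a gene that is no member, the member was the higher gene in 19 of 24 pairs. Of all 94 members, with or without a neighbour, 73.4% lay above the median of expressed genes. Whether the count in pairs differs from what that general level gives was not tested. Mrps18b and Ppp1r10 were nearly level at 19.2 and 18.0 TPM. Mrpl49 stood at 17.5 TPM beside Fau, a protein of the cytosolic ribosome, at 1370 TPM. Mrps5 stood at 46.9 TPM beside the zinc finger gene Zfp661 at 1.90 TPM. Some neighbours belong to mitochondria themselves, such as Ndufb5, a complex I subunit, at 101 TPM beside Mrpl47 at 9.89 TPM, and Twnk, the helicase of the mitochondrial genome, at 6.85 TPM beside Mrpl43 at 27.3 TPM.

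In 2 places both genes of such a pair are members. The stretches outside both genes are shown because each is the region from which 2 parts of the same translation system are transcribed in opposite directions. They are written 5′ to 3′ on the + strand of GRCm38.p6, with capitals marking the CCAAT box, here on the opposite strand.
Mrps12 to Sars2 (chr7:28741822-28741956): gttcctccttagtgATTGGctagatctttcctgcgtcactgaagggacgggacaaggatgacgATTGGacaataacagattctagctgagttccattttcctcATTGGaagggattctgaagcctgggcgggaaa
Mrpl46 to Mrps11 (chr7:78783090-78783130): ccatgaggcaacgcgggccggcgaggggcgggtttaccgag
The first stretch, of 135 bases and 48.1% G and C, holds 3 CCAAT boxes. Mrps12 on its left stood at 48.1 TPM and Sars2 on its right at 9.97 TPM, a ratio of 4.82. The second, of 41 bases and 73.2% G and C, holds no motif of those searched. Mrps11 stood at 29.2 TPM and Mrpl46 at 11.1 TPM, a ratio of 2.62. In both pairs the small subunit gene was the higher one.

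**Figure D5:**
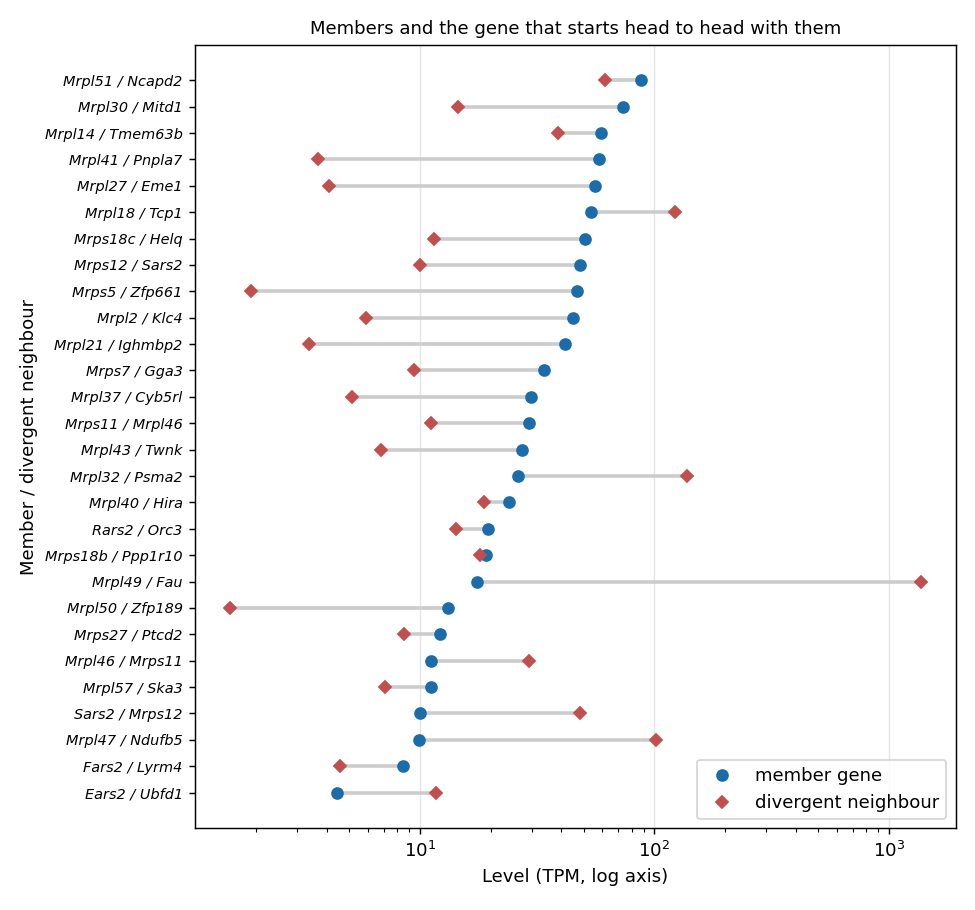
Level of each of the 28 members with a divergent neighbour (circles) and of that neighbour (diamonds) in 1 library, in TPM on a log axis, sorted by the member's level; the 2 pairs made of 2 members appear once for each gene. The circle lies to the right in 21 of 28 rows, and the widest gap is Mrpl49 at 17.5 TPM beside Fau at 1370 TPM. No such share was computed for other divergent pairs.

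The members lie on 18 of the chromosomes, with 11 genes on chromosome 11, 10 on chromosome 17 and 9 on chromosome 7, and none on chromosome 12 or X. The share of all protein-coding genes on each chromosome was not computed, so these counts show neither clustering nor avoidance.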

How the data were processed

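RNA of sorted hair follicle stem cells was sequenced as paired ends from Illumina mRNA libraries, per the labels' protocols. The authors deposited 1 table of TPM values per gene, per the file headers. Bowtie2 2.2.9, RSEM 1.2.30 and mm10 are named in the submitters' processing notes. No annotation or filter is named there. The anagen sample was tied to the column named 1, a number that stands in its title alone. The other 11 columns were not used. TPM keeps no depth, so the precision of single values is unknown.

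The table's 42661 rows were reduced to 42392 gene IDs, and a gene name table supplied missing symbols (41523 IDs have one). Where a symbol stood on several IDs the highest was used. Gene types, positions and promoters came from RefSeq on GRCm38.p6, the assembly of mm10, matched by symbol. Medians, counts and ratios were computed within the 1 library, and the motif search was tested on simulated data. The members, lists, classes and motifs were chosen with earlier results of these data known. Every member could be named, except 1 that is counted but not reported here by name or drawn with its label, and of other lists the 3 highest and 2 lowest, the cytosolic counterparts and the markers. Gabpa, Nrf1, Gabpb1, Esrra and the divergent neighbours named go beyond this rule and were chosen after their values were seen. Alternatives were other scalings, filters, summaries and memberships. Python 3.11.15, pandas 2.3.3, numpy 2.4.6 and matplotlib 3.10.9 were used.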

Additional observations from a re-analysis of the deposited data

How the results depend on the processing

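Every value rests on 1 library, so no replicate could be left out. No paired analysis was possible because the groups share fewer than 2 replicate numbers and only 1 sample could be tied by name to a column. Rescaling without the mitochondrial genome and the 50 highest genes multiplied each level by 1.73, giving medians of 64.0, 53.5 and 17.3 TPM for the large subunit, the small subunit and the synthetases, and left both ratios unchanged by construction. Keeping only genes at 5 TPM or more gave 37.3 and 12.6 TPM for the large subunit and the synthetases, 2.78 for the ratio of ribosomal to synthetase medians and 1.78 for the cytosolic to mitochondrial ratio, since the lowest synthetases drop out. Geometric means with a pseudocount of 1 were 31.1, 32.6 and 10.5 TPM, with ratios of 3.02 and 3.50, and with a pseudocount of 0.1 they were 30.7, 32.4 and 9.89 TPM, with ratios of 3.17 and 2.98. By geometric mean the small subunit was thus slightly above the large one, the reverse of the medians. Adding members under other symbols, Kars and Gars gave medians of 36.8, 31.5 and 11.0 TPM and a ratio of 3.14. Of alternatives chosen after seeing the data, leaving out Lars2 gave 9.21 TPM and ratios of 3.69 and 3.73. Leaving out members with a named pseudogene gave 36.8 and 31.2 TPM for the subunits. The count of 69 members above the median of expressed genes was 63 to 74 in the alternatives run, which do not all hold the same genes. The 63 are of the 87 members at 5 TPM or more, with the median also taken over genes at that level. The 74 include genes added under other symbols, Kars and Gars.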
